A study of Rattus norvegicus with 16 samples.

Results

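Gnai1, the gene of a Gi alpha subunit, was lower in livers of rats fed soy protein isolate (SPI) than of rats fed casein (CAS). None of the 6 other listed G protein subunits in the table passed the test with limma in either direction. Of the 8004 genes tested, 4.87% passed it. DESeq2 called 2 of the 6 lower (Gna11 and Gnb2), where it called 4.60% of genes lower. These 6, Gnai3, Gnas, Gnaq, Gna11, Gna12 and Gnb2, all had lower means in SPI-fed rats, by 0.15 to 0.46 on the log2 scale against 2.18 for Gnai1. The genes were chosen by symbol. Of 9 subunit genes listed, 7 had a row among the 9645 genes of the deposited table and all 7 passed the filter on low values, while Gnai2 and Gnb1 were not analysed here. Gnai1 was put at the head of the list because of its large difference between these same livers, so its own difference is given as a description and with no test.

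The livers came from male Zucker rats of the obese genotype, which carry fat in the liver, and each rat gave 1 RNA library. Both groups were obese, were bought at 6 weeks of age and ate their diet for 16 weeks after a week of acclimation, 8 rats on casein as the control and 8 on soy protein isolate rich in isoflavones. No lean rats are among the samples, so the comparison is between 2 protein sources in obese animals. The libraries are named CAS 1 to CAS 8 and SPI 1 to SPI 8 after the replicate numbers of the labels. Each held 14901365 to 21632979 whole reads over the genes listed. The hepatocyte gene for albumin (Alb) was abundant throughout, with a mean normalized count of 3487280 in CAS-fed and 4273890 in SPI-fed rats. On the first principal component, which held 19.1% of the variance, the SPI libraries lay between 10.4 and 26.7 and CAS 1, 2, 3, 5 and 8 between -41.3 and -26.1, while CAS 4, CAS 6 and CAS 7 stood apart from their group at 1.18 to 2.73.

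Heterotrimeric G proteins carry signals from receptors in the cell membrane to enzymes inside. An alpha subunit binds GDP at rest, exchanges it for GTP when a receptor is activated and then parts from the beta and gamma pair, until it hydrolyses the GTP. The Gi alpha subunits hold back adenylyl cyclase, the enzyme that makes cyclic AMP (cAMP), Gs alpha stimulates it, Gq and G11 act on phospholipase C and G12 acts on guanine nucleotide exchange factors. In hepatocytes, glucagon acts mainly through Gs and cAMP to release glucose, and vasopressin and adrenaline also act through Gq.

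The stretch before the start of Gnai1 is shown because this gene had the difference that the list was built on. Gna11 is shown beside it for its Pearson's r with Gnai1 over all livers less diet means, the highest of the members (0.50). In each diet alone another member had a higher r, and none of these relations passed the test. Both stretches run over 250 bases up to the start site in RefSeq, build GRCr8, and capitals mark the letters of the GC box GGGCGG on either strand.
Gnai1, chr4:17705811-17706060, plus strand: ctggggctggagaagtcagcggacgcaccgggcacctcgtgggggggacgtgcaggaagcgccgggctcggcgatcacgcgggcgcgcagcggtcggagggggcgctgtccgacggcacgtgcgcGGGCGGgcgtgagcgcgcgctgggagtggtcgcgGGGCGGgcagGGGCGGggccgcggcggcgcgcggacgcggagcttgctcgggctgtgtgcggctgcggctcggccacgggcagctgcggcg
Gna11, chr7:8814035-8814284, plus strand: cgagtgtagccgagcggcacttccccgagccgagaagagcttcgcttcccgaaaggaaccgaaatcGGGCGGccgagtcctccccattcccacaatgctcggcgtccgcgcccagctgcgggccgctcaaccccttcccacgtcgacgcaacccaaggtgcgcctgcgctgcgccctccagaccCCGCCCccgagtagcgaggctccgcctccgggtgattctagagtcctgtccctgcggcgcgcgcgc
The Gnai1 window was 80.4% G and C with 45 CpG dinucleotides, and 99.0% of the 33469 windows of this length in the table had a lower G and C content. The Gna11 window was 70.0% G and C with 33 CpG dinucleotides. The other member windows were at 80.0% for Gnaq, 72.0% for Gna12, 54.0% for Gnb2 and 83.2%, 61.2% and 49.2% for Gnas. A content this high was therefore not particular to Gnai1. Gnai1 held 3 GC boxes and Gna11 held 2, a motif found in 30.5% of all windows. Gna12 held 6, a Gnas window held 3 and the remaining member windows held 0 or 1. Neither Gnai1 nor Gna11 held the cAMP response element TGACGTCA, found in 1.59% of windows, or its half-site TGACG, which lies within it and is found in 18.2%, both searched on either strand. Of the 7 members, 6 matched a window by symbol (not Gnai3).

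Gnai1 encodes a Gi alpha subunit. Its normalized count, the reads divided by the size factor of the library, was 52.7 at the lowest (CAS 6), 82.5 at the median and 167 at the highest (CAS 3) in CAS-fed rats. On soy it was 5.01 at the lowest (SPI 3), 19.8 at the median and 33.0 at the highest (SPI 4). Every SPI library therefore lay below every CAS library, which held for 0.550% of the 8004 genes tested, and the rule that chose the gene rested on this contrast. None of the 7 subunits had every SPI library above every CAS library, which held for 0.350% of genes. The means were 92.2 ± 36.1 (SD, n = 8) in CAS-fed and 19.3 ± 7.99 (SD, n = 8) in SPI-fed rats. The log2 difference, SPI minus CAS, was -2.18 on quantile-normalized log2(value + 1), a level 4.52-fold lower on that scale, and 21 of the other genes tested had a more negative difference. Gnai1 rested on 58 to 177 reads per CAS library and 5 to 36 reads per SPI library. The 5 reads of SPI 3 allow a normalized count of 1.63 to 11.7 (95% exact Poisson interval, counting error only). The next lowest library, SPI 6, was at 14.9, with an interval of 8.13 to 24.9 that overlaps that of SPI 3. Within a diet the spread was similar in relative terms, with an SD of 39.2% of the mean in CAS-fed and 41.5% in SPI-fed rats. CAS 4, CAS 6 and CAS 7, which stood apart on the first component, had the 3 lowest Gnai1 levels of their group, at 65.6, 52.7 and 70.2. Without them the log2 difference of Gnai1 was -2.46.

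**Figure D1:**
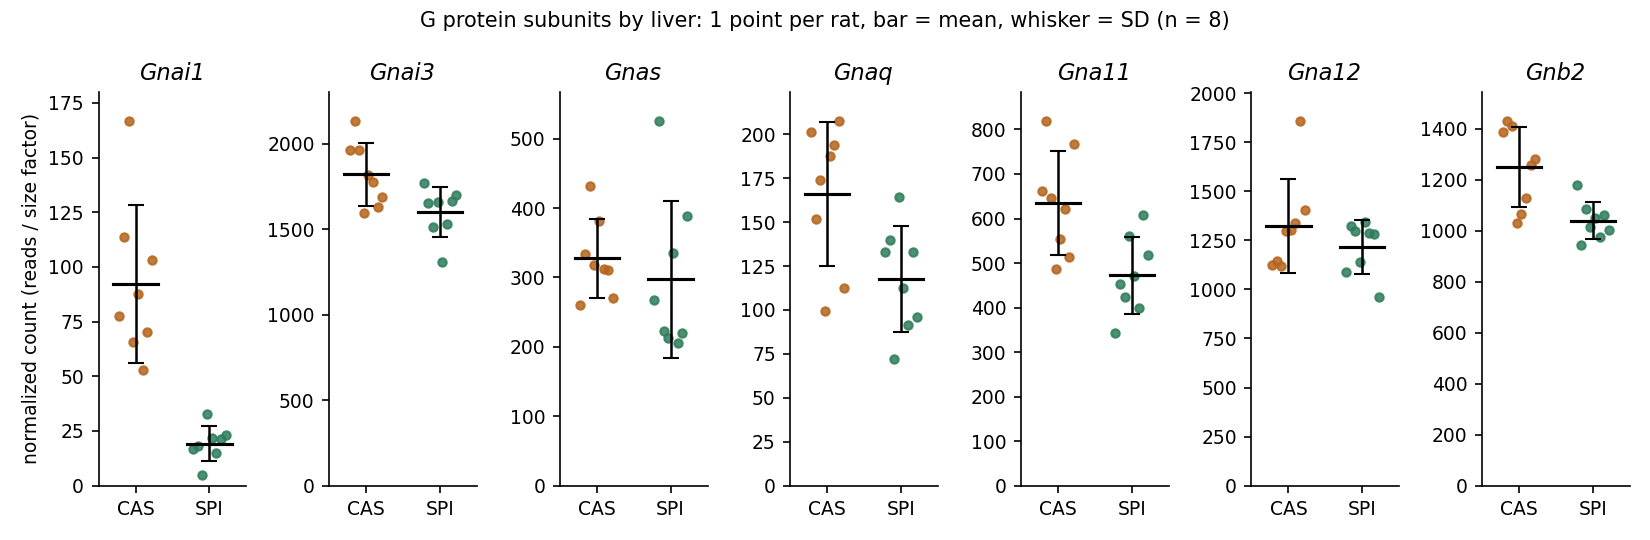
Normalized count (reads divided by the library's size factor, linear axis from 0) of the 7 subunits in each liver, CAS-fed and SPI-fed rats side by side, with 1 point per rat, the mean as a bar and the SD as a whisker (n = 8 per diet). The Gnai1 points do not overlap between diets, with 52.7 as the lowest CAS liver and 33.0 as the highest SPI liver, while the points of the other 6 subunits do.

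Gnai3 encodes another Gi alpha subunit, with the same action on adenylyl cyclase. Its normalized count ranged from 1596 (CAS 4) over a median of 1796 to 2131 (CAS 2) in CAS-fed rats and from 1308 (SPI 5) over a median of 1655 to 1773 (SPI 1) in SPI-fed rats. All 8 SPI libraries lay below the CAS median, but 5 lay above the lowest CAS library. The log2 difference was -0.24 (standard error 0.09, 95% interval -0.41 to -0.06, adjusted p = 0.114 from limma), so Gnai3 did not pass the test. Within each library there were 2.97 to 8.49 counts of Gnai1 for every 100 of Gnai3 on casein (mean 5.01 ± 1.69, SD, n = 8) and 0.332 to 1.99 on soy (mean 1.21 ± 0.501, SD, n = 8), with no overlap. This ratio contains the value that chose Gnai1 and is a description. It is not a ratio of molecules, because counts were not divided by transcript length, and for the same reason the levels of different subunits are not ranked. The coding sequences of these related genes are similar, and how the authors treated reads that fit more than one gene is not given in the sources used here.

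Gnas, whose locus encodes Gs alpha and several other transcripts from alternative starts, had the widest spread of the other subunits on soy relative to its mean (an SD of 38.1% of the mean). Its normalized count ran from 260 (CAS 1) over 315 at the median to 432 (CAS 3) on casein and from 206 (SPI 6) over 245 at the median to 525 (SPI 2) on soy. SPI 2 was thus the highest of all 16 livers, and 4 other SPI livers lay below every CAS liver. Its log2 difference was -0.19 (standard error 0.17, 95% interval -0.54 to 0.17, adjusted p = 0.603 from limma). Without SPI 2 it was -0.32 (adjusted p = 0.252 from limma) and without the libraries numbered 2 and 8 of both diets, whose sequencing codes break the order of the others in the labels, it was -0.44 (adjusted p = 0.162 from limma). The table gives 1 value for the whole locus, so its transcripts cannot be told apart.

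Gnaq and Gna11 encode the alpha subunits that activate phospholipase C beta. The normalized count of Gnaq was 99.3 (CAS 4) to 207 (CAS 7) with a median of 181 on casein, and 72.1 (SPI 3) to 164 (SPI 4) with a median of 123 on soy. That of Gna11 was 488 (CAS 4) to 819 (CAS 2) with a median of 634 on casein, and 343 (SPI 1) to 608 (SPI 7) with a median of 462 on soy. In both genes every SPI liver lay below the CAS median, and 3 SPI livers in Gnaq and 5 in Gna11 lay below every CAS liver. The log2 difference of Gnaq was -0.46 (standard error 0.19, 95% interval -0.85 to -0.07, adjusted p = 0.173 from limma). That of Gna11 was -0.42 (standard error 0.13, 95% interval -0.67 to -0.16, adjusted p = 0.0571 from limma), outside the threshold of 0.05. The adjusted p of Gna11 fell to 0.0286 without CAS 4, 0.0383 without CAS 7 and 0.0334 without SPI 7 and reached 0.131 without CAS 2, and it was 0.0499 from edgeR and 0.0291 from DESeq2.

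Gna12 encodes the alpha subunit that acts on guanine nucleotide exchange factors and Gnb2 a beta subunit that pairs with a gamma subunit. The normalized count of Gna12 was 1121 (CAS 3) to 1857 (CAS 7) with a median of 1299 on casein, and 962 (SPI 8) to 1341 (SPI 5) with a median of 1285 on soy. Gna12 thus had nearly equal medians, and its log2 difference was -0.15 (standard error 0.10, 95% interval -0.37 to 0.06, adjusted p = 0.435 from limma). It was -0.09 without CAS 7, the highest liver. The normalized count of Gnb2 was 1030 (CAS 4) to 1429 (CAS 2) with a median of 1268 on casein, and 943 (SPI 2) to 1178 (SPI 1) with a median of 1032 on soy. All 8 SPI livers were below the CAS median of Gnb2 and 4 were below every CAS liver. The log2 difference of Gnb2 was -0.29 (standard error 0.09, 95% interval -0.47 to -0.11, adjusted p = 0.0507 from limma), again outside the threshold. Its adjusted p was 0.0186 without CAS 4, 0.0384 without CAS 6, 0.0428 without SPI 1 and 0.114 without CAS 2, and it was 0.0714 from edgeR and 0.0438 from DESeq2. With the filter on low values at 50 it was 0.0382 from limma, and 3.88% of the genes then tested were called lower. CAS 4 was the lowest CAS liver for Gnai3, Gnaq, Gna11 and Gnb2.

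**Figure D2:**
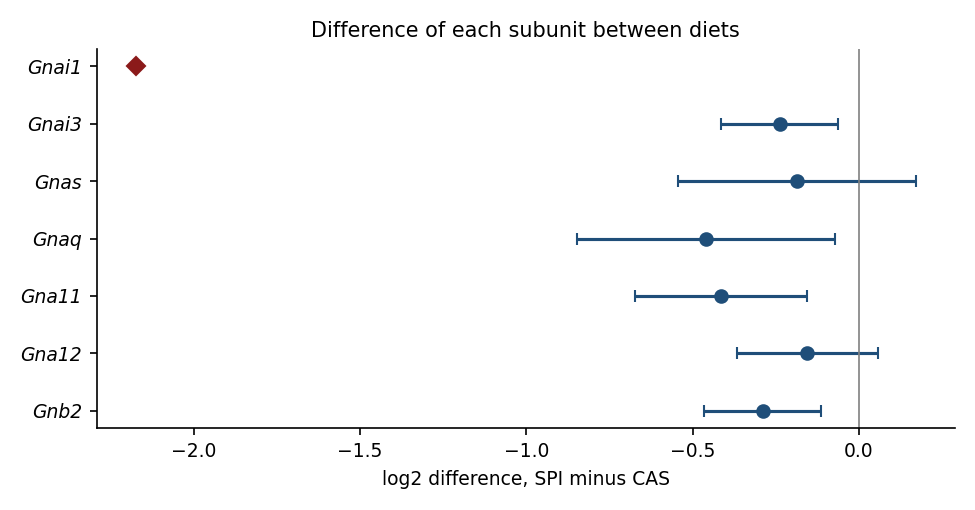
Log2 difference of each subunit, SPI minus CAS, on quantile-normalized log2(value + 1), with the 95% interval from limma for the 6 subunits other than Gnai1 (circles) and the value alone for Gnai1 (diamond). The 6 circles lie between -0.46 and -0.15 and the diamond at -2.18, and only the intervals of Gnas and Gna12 reach above 0.

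Counted together, 0 of the 6 other subunits were called higher or lower at an adjusted p under 0.05 from limma, where 1.97% of the 8004 genes were called higher, 2.90% lower and 4.87% either way. At an unadjusted p under 0.05, 4 of the 6 differed (Gnai3, Gnaq, Gna11 and Gnb2, each lower on soy), where 18.8% of all genes did, 801 of them lower and 706 higher. The difference was below 0 in 6 of 6, against 48.6% of all genes, and the median of all genes was 0.01. edgeR called 1 of the 6 lower (Gna11, where it called 2.95% of genes lower) and DESeq2 called 2 (Gna11 and Gnb2, where it called 4.60% lower), and neither called any higher. Without CAS 4, CAS 6 and CAS 7, 3 were called lower by limma, at -0.54 for Gna11 (adjusted p = 0.0129), -0.38 for Gnb2 (adjusted p = 0.00908) and -0.32 for Gnai3 (adjusted p = 0.0318), where 5.46% of all genes were lower. These 3 libraries were left out after the data were seen, and because of a component that itself separates the diets.

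None of these 6 rose against the lower Gnai1. The upper bounds of their 95% intervals were 0.17 for Gnas and 0.06 for Gna12, and those of Gnai3, Gnaq, Gna11 and Gnb2 were below 0. Of the listed Gi alpha subunits other than Gnai1, these 6 include only Gnai3, because Gnai2 was not analysed here. The normalized counts of the 6 other subunits summed to 4828 to 6009 per liver on casein (mean 5519 ± 360.4, SD, n = 8) and to 4487 to 5035 on soy (mean 4740 ± 185, SD, n = 8), a sum to which the genes with the most reads contribute most. In single livers, Gnai1 was 1.31 to 3.77 log2 units under the CAS mean on soy, while Gnai3 was 0.07 to 0.52 units under it. In bulk liver, fewer cells of a type and less RNA per cell cannot be told apart.

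**Figure D3:**
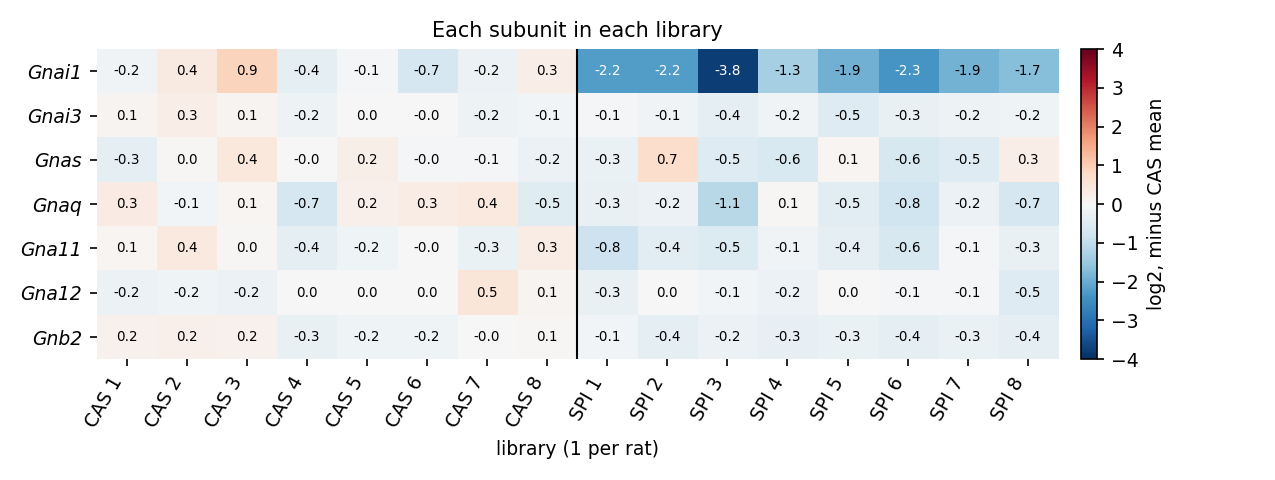
Each of the 7 subunits (rows) in each of the 16 libraries (columns, CAS left and SPI right of the line), as the quantile-normalized log2 level minus the CAS mean of that gene, with blue for lower and red for higher. Gnai1 is at -3.8 to -1.3 in the SPI columns, and the other rows stay between -1.1 and 0.7.

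Within a diet, the level of Gnai1 was set against each other subunit over 8 livers, which does not use the difference between diets. This gave 12 relations. None had an adjusted p under 0.05, the lowest being 0.226 for Pearson's r and 0.252 for Spearman's coefficient (exact permutation tests, two-sided, adjusted over the 12). Gna11, Gnai3 and Gnas were positive in both diets. Gnai3 had an r of 0.54 on casein (exact permutation p = 0.167, adjusted p = 0.424; Spearman's coefficient 0.67, exact permutation p = 0.0831, adjusted p = 0.252) and 0.35 on soy (exact permutation p = 0.399, adjusted p = 0.597; Spearman's coefficient 0.25, exact permutation p = 0.549, adjusted p = 0.598), and r was 0.67 and -0.17 without the 2 livers of each diet farthest from the median of Gnai1. Gnas had an r of 0.49 on casein (exact permutation p = 0.212, adjusted p = 0.424; Spearman's coefficient 0.43, exact permutation p = 0.299, adjusted p = 0.598) and 0.14 on soy (exact permutation p = 0.746, adjusted p = 0.746; Spearman's coefficient 0.06, exact permutation p = 0.898, adjusted p = 0.898), and r was -0.02 and 0.18 without those livers. For Gna11 on casein, Pearson's r was 0.51 (exact permutation p = 0.197, adjusted p = 0.424) and its Spearman's coefficient 0.64 (exact permutation p = 0.0962, adjusted p = 0.252), and r was 0.93 without CAS 3 and CAS 6, the livers farthest from the median of Gnai1. On soy the r of Gna11 was 0.52 (exact permutation p = 0.187, adjusted p = 0.424) and its Spearman's coefficient 0.80 (exact permutation p = 0.0211, adjusted p = 0.252), and r was 0.75 without SPI 3 and SPI 4. Gnaq had the highest r, 0.78 on soy (exact permutation p = 0.0188, adjusted p = 0.226; Spearman's coefficient 0.62, exact permutation p = 0.105, adjusted p = 0.252), but r was -0.01 without SPI 3 and SPI 4 and -0.15 on casein, so that this relation rested on these 2 livers. Gnb2 had an r of 0.70 on casein (exact permutation p = 0.0522, adjusted p = 0.313; Spearman's coefficient 0.64, exact permutation p = 0.0962, adjusted p = 0.252; r = 0.66 without CAS 3 and CAS 6) and -0.21 on soy. Gna12 was negative in both diets, at r = -0.44 on casein (exact permutation p = 0.280, adjusted p = 0.479; Spearman's coefficient -0.34, exact permutation p = 0.410, adjusted p = 0.598) and r = -0.31 on soy (exact permutation p = 0.448, adjusted p = 0.597; Spearman's coefficient -0.36, exact permutation p = 0.381, adjusted p = 0.598). Each lane code holds only 1 or 2 libraries of a diet, too few for values within lanes.

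The genes whose levels were most like Gnai1 within diets were picked from 8000 genes by Pearson's r over the 16 livers after each diet mean was subtracted, as a description of these livers. The 5 highest were Fam115c (r = 0.83), Dusp3 (r = 0.78), a dual-specificity phosphatase, and the cell cycle genes Ccnd1 (r = 0.76), Ccnb1 (r = 0.75) and Rrm2 (r = 0.75). Fam115c had an r of 0.91 on casein and 0.78 on soy, and 0.74 without SPI 3 and CAS 3, the 2 livers farthest from the median of Gnai1. Ccnd1, cyclin D1, had 0.25 on casein and 0.93 on soy, Ccnb1, cyclin B1, 0.37 and 0.87, and Rrm2, a subunit of ribonucleotide reductase, 0.44 and 0.93. Without SPI 3 and CAS 3 these 3 had an r of 0.47 to 0.54 and Dusp3 an r of 0.41. Mean normalized counts on soy were low for Rrm2 (8.80), Dusp3 (20.1) and Ccnb1 (26.1), as for Gnai1 (19.3). Those of Fam115c and Ccnd1 were 41.9 and 61.2. The most negative were Qdpr (r = -0.79), which regenerates tetrahydrobiopterin, LOC498414 (r = -0.77), Tmem140 (r = -0.75), LOC103692052 (r = -0.74) and LOC108351510 (r = -0.73). The r of Qdpr was -0.89 on casein and -0.90 on soy, and -0.78 without SPI 3 and CAS 3. For all genes picked here, such values are parts of the r that picked them from 8000, and are no test of it. None of these 10 genes passed the test between diets, with adjusted p of 0.158 (Dusp3) to 0.968 (LOC108351510) from limma. Among the members, Gna11 stood at rank 236 of 8000 from the top (r = 0.50) and Gnai3 at rank 515 (r = 0.42).

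The other genes of G protein signalling were taken from 14 lists, with 78 of 190 genes in the table and 49 tested. Of these, 1 was lower (Pde4b), 0 were higher and 48 did not pass the test in limma. Over all genes, 2.90% were lower and 1.97% higher. The median log2 difference of the 49 was -0.03 against 0.01 for all genes. At an unadjusted p under 0.05, 8 of the 49 were lower and 1 was higher, against 801 lower and 706 higher of the 8004 genes. edgeR called 1 lower and 0 higher, where it called 2.95% of all genes lower and 196 higher. DESeq2 called 1 lower and 1 higher, where it called 4.60% of all genes lower and 308 higher. Of the subunits outside the 9 listed, 6 were tested and 0 passed. Gna13, the partner of Gna12, was at -0.31 (adjusted p = 0.236), Gnat3, the taste alpha subunit gustducin, at 0.25 (95% interval -0.33 to 0.83, adjusted p = 0.677), the beta subunit Gnb4 at -0.29 (adjusted p = 0.693) and the gamma subunit Gng5 at -0.10 (adjusted p = 0.862).

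Among adenylyl cyclases, cAMP phosphodiesterases and proteins that cAMP acts on, 8 genes were tested. Pde4b, a phosphodiesterase that breaks down cAMP, was lower in SPI-fed rats, and the 3 other phosphodiesterases tested did not pass. Normalized counts of Pde4b were 148 to 534 with a median of 214 on casein and 64.3 to 182 with a median of 137 on soy, so that the diets overlapped. The means were 295 ± 161 (SD, n = 8) and 127 ± 39.5 (SD, n = 8), and the log2 difference was -1.07 (standard error 0.29, adjusted p = 0.0404 from limma). The study names this gene among those that differed in these livers, so the call is not independent of it. The call was lost in 11 of 16 fits that left out 1 library (adjusted p = 0.0206 to 0.0783, under 0.05 only without CAS 2, CAS 3, CAS 4, CAS 6 or SPI 7). It was also lost with the replicate number as a block (adjusted p = 0.0615) and without the libraries numbered 2 and 8 (adjusted p = 0.142). The log2 difference was -1.07 with the block, -1.17 without these libraries and -1.18 to -0.92 with 1 library left out. The cyclase gene Adcy5 was at 0.21 (adjusted p = 0.770), Prkacb, a catalytic subunit of the cAMP-dependent kinase, at 0.43 (adjusted p = 0.669) and Rapgef4, a cAMP-activated exchange factor, at 0.25 (adjusted p = 0.346), none of which passed the test. Prkacb had low normalized counts, at 4.97 to 31.4 on casein and 6.01 to 48.1 on soy. None of 8 cAMP-responsive genes of liver passed the test, where 4.87% of all genes did. At an unadjusted p under 0.05, 0 of the 8 differed, where 18.8% of all genes did. Dusp1 was at 0.34 (adjusted p = 0.429), Sik1 at -0.30 (adjusted p = 0.522) and the median over the 8 at -0.04. Log2 differences and adjusted p here and in the next paragraph are from limma.

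Of the proteins that act on alpha subunits, none of 3 RGS genes and none of 5 chaperone and receptor-independent regulator genes passed the test. Over all genes, 4.87% did. RGS proteins speed up GTP hydrolysis by alpha subunits. Rgs4 was at -1.17 (adjusted p = 0.139), Rgs5 at -0.68 (adjusted p = 0.148), and 2 of the 3 were lower at an unadjusted p under 0.05, as were 801 of the 8004 genes. Normalized counts of Rgs4 were low, at 17.9 to 69.7 on casein and 1.37 to 44.5 on soy. Ric8a, a chaperone of newly made alpha subunits, was at -0.24 (adjusted p = 0.100) and Ccdc88a, a G protein modulator also known as girdin, at -0.69 (adjusted p = 0.269). Counts of Ccdc88a were also low, at 16.1 to 43.3 on casein and 8.17 to 30.2 on soy. Arrb2, an arrestin, was at -0.23 (adjusted p = 0.532) and the receptor kinase Grk2 at 0.01 (adjusted p = 0.974). Of 13 receptor genes tested, 0 passed. The glucagon receptor Gcgr, coupled to Gs, was at 0.23 (adjusted p = 0.340). Adra1b, the main alpha-1 adrenergic receptor of rat liver, coupled to Gq, was at 0.52 (adjusted p = 0.0985) and the thrombin receptor F2r at -0.38 (adjusted p = 0.519). Of the receptors coupled to Gi, C5ar1 of complement was at -0.77 (adjusted p = 0.243) and the chemokine receptor Cxcr4 at 0.31 (adjusted p = 0.528). Of 4 effectors of Gq and G12 none passed, with the exchange factors Arhgef12 at -0.26 (adjusted p = 0.159) and Arhgef1 at 0.07 (adjusted p = 0.644).

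**Figure D4:**
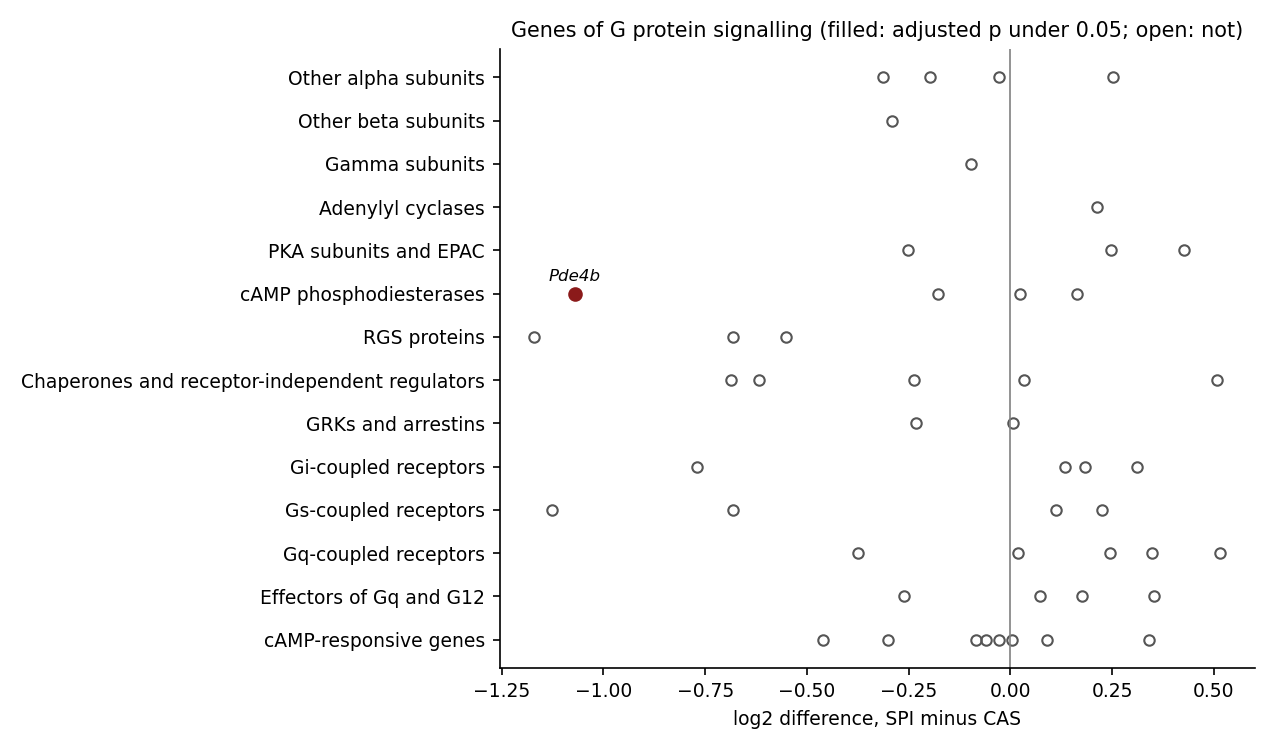
Log2 difference, SPI minus CAS, of each of the 49 tested genes of G protein signalling (points), by list (rows), on quantile-normalized log2(value + 1). The 1 filled point is Pde4b at -1.07 (adjusted p under 0.05 in limma), and the open points, from -1.17 (Rgs4) to 0.52 (Adra1b), did not pass the test.

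Markers of other liver cells were set beside these values. None of 5 stellate cell genes, including collagens and Reln, passed the test between diets, but all 5 log2 differences were below 0, against 48.6% over all genes (median -0.81). At an unadjusted p under 0.05, 3 of the 5 were lower, as were 801 of the 8004 genes. Their summed normalized count was 3661 to 5643 on casein and 3115 to 5407 on soy. The 2 smooth muscle genes, Acta2 and Tagln, were at a median of -0.57, with sums of 243 to 546 on casein and 115 to 525 on soy. Neither passed the test. At an unadjusted p under 0.05, 1 of the 2 was lower, Acta2 at -0.76 (adjusted p = 0.239 from limma), as were 801 of the 8004 genes. The 7 Kupffer cell and macrophage genes summed to 4443 to 7273 on casein and 3698 to 6421 on soy (median difference -0.11), and the 6 endothelial genes to 899 to 3777 and 2067 to 4345 (median difference 0.19). At an unadjusted p under 0.05, 2 of the 7 Kupffer cell and macrophage genes were higher on soy, Cd163 at 0.98 (adjusted p = 0.0616 from limma) and Vsig4 at 0.30 (adjusted p = 0.180 from limma), and 1 of the 6 endothelial genes, Lyve1 at 0.66 (adjusted p = 0.0937 from limma), as were 706 of the 8004 genes. The 2 cholangiocyte genes summed to 32.8 to 88.4 and 6.92 to 151 and the 3 lymphocyte genes to 56.4 to 156 and 36.8 to 118. No marker listed was at 0 in every library, and 0 of the 4 neutrophil markers were analysed. The ranges overlapped between diets in every one of these lists, and the part of these cells in the levels of Gnai1 and the other subunits was not tested.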

How the data were processed

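Per the labels, RNA was taken from 16 livers with 1 library each. The signal values are normalized counts: the authors scaled the reads of each gene by a size factor of its library, as DESeq2 does, and added a pooled mean column. The deposited table also holds the authors' log2 fold changes with standard errors, a Wald score and p-value columns, which were not used. The submitters' processing notes name Rnor_6.0, FastQC and DESeq2. The methods of the study instead describe RPM from CLC Genomics Workbench 8 on rat assembly version 4, taken to log2 and quantile-normalized, which is not what the table holds. The table has no coordinates, and promoter windows came from RefSeq (GRCr8).

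The 8004 genes that reached 10 normalized counts in 8 or more of the 16 libraries were taken to log2(value + 1), quantile-normalized and tested with limma 3.58.1 (trend, robust, two-sided, R 4.3.3), with Benjamini-Hochberg adjustment over all of them. The steps were tested on simulated data. Whole reads were recovered (100% of values within 0.05 of a whole number) and given to edgeR 4.0.16 (quasi-likelihood, TMM) and DESeq2 1.42.0 as alternatives. Other alternatives changed the scaling (as deposited or upper-quartile), the pseudocount (0.5 or 8) or the filter (none, or 50), blocked on replicate number, or left libraries out. Exact permutation tests used numpy 2.4.6. Libraries of a diet differed beyond counting noise (chi-square per gene of at least 25.1), and each is treated as 1 rat.

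Named were all members, the called genes of each pathway list (or the 2 with the smallest p) and the 5 genes at either end of the within-diet correlation. A gene that this rule also picks is not reported here. Pathway genes listed under an older symbol were matched under either name. The members and lists were chosen with earlier results of these data known.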

Additional observations from a re-analysis of the deposited data

Results flagged for a closer look

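On the quantile-normalized log2 scale, the Gnai1 level of SPI 3 stood apart from the other SPI livers. Its gap to the nearest of them on that scale was 0.579 of the range of the group, above Dixon's 95% critical value of 0.526 for 8 samples. The gap was not tested on the normalized counts, where a low value stands out less. The level of SPI 3 was 2.67 on the quantile-normalized log2 scale, a normalized count of 5.01 from 5 reads. Its Poisson interval overlaps that of SPI 6, the nearest of the other SPI livers. Chance gives such a gap in about 1 group in 20, and this was the only one among the 62 groups examined over 31 named genes. The log2 difference of Gnai1 over the fits that left out 1 library ranged from -2.30 to -1.94, the latter without SPI 3.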

How the results depend on the processing

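The log2 difference of Gnai1 was -2.46 to -1.81 over all alternatives, and all 6 other subunits stayed below 0 in every alternative. The count of these 6 called lower was 0 in the main fit, 1 with the filter at 50 (Gnb2, where 3.88% of genes were lower), 1 with edgeR, 2 with DESeq2, 3 without CAS 4, CAS 6 and CAS 7 (added after the data were seen) and 0 to 2 with 1 library left out. The count called higher was 0 throughout (0 to 0 with 1 library left out). Over all genes, 158 were called higher and 232 lower. The counts were 247 and 218 with upper-quartile scaling, 308 and 361 with DESeq2, 97 and 149 with the replicate block, 369 and 437 without CAS 4, CAS 6 and CAS 7, and 45 and 67 when numbers 2 and 8 of both diets were dropped. With 1 library left out they were 98 to 202 higher and 135 to 287 lower, and moved by over 1.5 times for the lower genes without CAS 1 (152), CAS 2 (135), CAS 3 (142), CAS 5 (148) or SPI 3 (152) and for the higher genes without CAS 2 (100), CAS 3 (100), CAS 5 (98) or SPI 6 (103). The cause of these shifts was not tested. Same-numbered libraries of the diets share a lane code. With diet means removed, they correlated at -0.0950 to 0.0682 and 0 of 8 correlated best with its own number. No pairing by replicate number was seen, but these values cannot settle whether the samples were paired. With the replicate block, 0 of the 6 subunits were called and Gna11 was at an adjusted p of 0.128 from limma. Among the subunits tested, depth limits Gnai1 most, at 5 to 36 reads on soy.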
